A study of Mus musculus with 25 samples.

Results

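SRSF7 is a serine/arginine-rich protein that binds pre-mRNA and mRNA, takes part in splicing, 3′ end processing and mRNA export, and carries an RNA recognition motif, a zinc knuckle of the CCHC type and a tail rich in arginine-serine repeats. Here 2 altered forms of it were compared, each fused to GFP and studied in mouse P19 cells, an established line of embryonal carcinoma origin. The form labelled mutZn has a mutated zinc knuckle and has 2 libraries (replicates 3 and 4). The form labelled D27aa lacks a stretch that its label names by its length in amino acids, and also has 2 libraries (replicates 1 and 2). These 4 of the 25 libraries of the series were chosen by their titles: cells irradiated with UV light of 254 nm, iCLIP and an antibody against GFP. Each form has in addition 1 library of cells without UV light, and 3 libraries of the unmutated fusion (WT 2, WT 3 and WT 4) with 1 library without UV served as further points of orientation. The labels give no information on how the fusion genes were introduced, on the number of clones, or on removal of the endogenous SRSF7, which all these lines may therefore still make.

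In iCLIP, UV light links a protein to the RNA it touches, the protein is precipitated with its RNA fragment, and the reverse transcript tends to end next to the crosslinked nucleotide. One event is 1 cDNA that ended at a nucleotide, so an event number depends both on how much protein sits on the RNA and on how abundant the RNA is, and the 2 cannot be told apart in these libraries. In SRSF7 the RNA recognition motif makes the main contact with RNA and the zinc knuckle contributes to which sequences are preferred. SRSF7 also binds the transcripts of its own gene, where inclusion of an exon with premature stop codons is part of its feedback control.

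The mutZn libraries were far deeper, with 11782376 events in mutZn 3 and 6436730 in mutZn 4, against 376870 in D27aa 1 and 388768 in D27aa 2. WT 2, WT 3 and WT 4 held 221746, 1099389 and 3952779 events, and the libraries without UV held 66690 events for mutZn, 34947 for D27aa and 89070 for WT. Events were summed per strand in windows of 5000 nt and are given as CPM, the events scaled to 1000000 events of the library on placed chromosomes. Thinned to equal totals, mutZn 3 and mutZn 4 differed with a dispersion index of 1.08 (1 is sampling noise), so by the rule used here they differed by about the sampling noise and were counted as 1 sample. WT 3 and WT 4 (index 1.0979, against a limit of 1.1) were joined in the same way, whereas D27aa 1 and D27aa 2 (index 1.15) stayed separate. Between a mutZn and a D27aa library the index was 2.05 to 2.09, and within WT it was 1.88 between WT 2 and WT 3 and 1.92 between WT 2 and WT 4. The comparison therefore rests on 1 mutZn sample and 2 D27aa samples, and the spread comes from 5 joined or single libraries of the 3 forms. P19 cells were recognisable in all 4 libraries: Dnmt3b, a DNA methyltransferase of pluripotent cells, had 1110 and 1122 CPM in mutZn 3 and 4, against 659 and 703 CPM in D27aa 1 and 2. Sox2, Lin28a and Pou5f1 held between 54.9 and 167 CPM in the same libraries, Nanog between 2.6 and 16.5 CPM, and the liver, heart and astrocyte genes Alb, Myh6 and Gfap at most 2.7 CPM.

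Of 6744 windows tested, 130 (1.93%) passed an adjusted p of 0.05 between mutZn and D27aa in the limma-moderated quasi-likelihood test. Of these, 127 windows (1.88%) were lower in mutZn and 3 (0.0445%) were higher, while the median log2 fold change of all windows, mutZn over D27aa, was 0.01. The windows lower in mutZn lay apart from each other, as 125 stretches of at most 3 adjoining windows. Both the total and the balance of directions moved with the libraries that set the spread. Without WT 2 the test called 630 windows, 235 higher and 395 lower in mutZn, and without WT 4 it called 213. Without D27aa 1 it called 42, without D27aa 2 it called 45, and without mutZn 3 it called 82. All 130 windows had the same sign in each of these fits. When mutZn 3 and mutZn 4 (and WT 3 and WT 4) were kept as separate libraries, 516 windows (7.65%) were called, 195 higher (2.89%) and 321 lower (4.76%) in mutZn, among them all 130. This fit counts pairs that differ by about the sampling noise as independent samples, so its adjusted p is likely too low, here and below. With libraries again separate and the sequencing run as a block, 114 windows were called, 9 higher and 105 lower in mutZn. Sequencing run stands here for the library identifier in each file header, taken to mark a run. Other alternatives called fewer of the 130: 42 with each position counted once, 56 after thinning, 79 with no filter, 87 with the sequencing run as a block and 114 with limma-voom. Within the one sequencing run that held libraries of both forms (mutZn 4, D27aa 2, WT 3 and WT 4), 533 windows were called. The spread there comes from WT 3 and WT 4 alone, which differ by about the sampling noise, so this count sets 1 library of each form against technical noise.

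The filter bears on the balance of directions. A window was tested where at least 2 of the 5 libraries reached 25.75 CPM, and mutZn is 1 of the 5, so a window at that level in mutZn alone could not enter. Of the 127 windows lower in mutZn, 123 (96.9%) were below that level in mutZn, against 26.5% of all tested windows. In 103 of the 127 (81.1%) WT 3 and WT 4 were below it too, so these entered through D27aa and WT 2 and their direction was largely fixed by entering. With no filter 64 windows were higher and 306 lower in mutZn. Among the 3570 windows that reached the level in both WT samples, whatever the mutants, 25 were called (0.7003%), 2 higher and 23 lower in mutZn. This last selection was made after seeing the data.

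**Figure D1:**
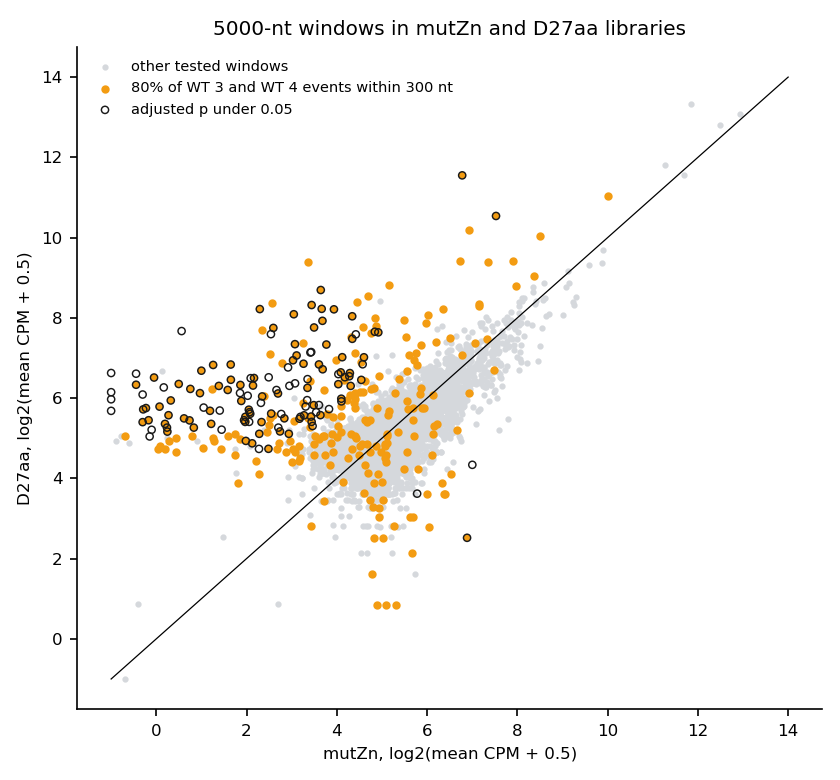
Each point is a tested 5000-nt window, with the mean CPM of mutZn 3 and 4 across and of D27aa 1 and 2 upwards, both as log2(CPM + 0.5). Black rings mark the 130 windows with an adjusted p under 0.05, of which 127 lie above the diagonal, and orange marks windows in which 80% of the WT 3 and WT 4 events fall within 300 nt.

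The strongest of the windows lower in mutZn lay on the minus strand of chromosome 6 (chr6:128745001-128750000, mm9). It held 111.7 and 106.8 CPM in mutZn 3 and 4, against 3144.5 and 2855.2 CPM in D27aa 1 and 2, a 27.5-fold lower mean in mutZn (log2 fold change -4.85, SE 0.82, adjusted p 0.041, limma-moderated test). In raw events these were 1315 and 687 in mutZn, against 1184 and 1109 in D27aa, although the mutZn libraries were many times deeper. In both forms 80% of the events fell within a few nucleotides of each other, 15 nt in mutZn and 16 nt in D27aa. The strongest nucleotides were 128749501 in mutZn, with 11.5% of the events, and 128749495 in D27aa, with 12.9%. WT 2, WT 3 and WT 4 had 1710.9, 301.3 and 165.3 CPM there, between the 2 mutants. Without UV the window held 345.1 CPM in mutZn cells (23 events) and 257.8 CPM in D27aa cells (9 events), so the mutZn level without UV was above the mutZn level with UV.

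The second window lay on the minus strand of chromosome 11 (chr11:108870001-108875000), with 179.7 and 188.3 CPM in mutZn and 1471.3 and 1503.6 CPM in D27aa (log2 fold change -3.11, SE 0.57, adjusted p 0.036, limma-moderated test). Its events spread further than on chromosome 6, with 80% inside 261 nt in mutZn and 217 nt in D27aa. The next 6 stretches by D27aa level were single windows with means of 272 to 414 CPM in D27aa and of 4.4 to 14.8 CPM in mutZn. One of them, on the minus strand at chr3:78355001-78360000, had 10.96 and 13.06 CPM in mutZn and 363.8 and 463.4 CPM in D27aa (log2 fold change -5.18, SE 0.91, adjusted p 0.046, limma-moderated test), and the adjusted p was 0.063 with the sequencing run as a block. Here the D27aa events were packed into 26 nt and the mutZn events into 937 nt. In another, on the plus strand at chr4:105310001-105315000, both forms had their strongest nucleotide at 105310457, which held 48.3% of the mutZn events and 50% of the D27aa events. That window had 8.1 and 7.5 CPM in mutZn and 273.6 and 270.3 CPM in D27aa (log2 fold change -5.13, SE 0.54, adjusted p 0.0026, limma-moderated test). The site was thus present in both mutant forms at the same nucleotide. Of the 13 windows lower in mutZn that are described here, 9 kept the call with the sequencing run as a block, 11 after thinning, 5 with each position counted once, 4 without D27aa 1 and 7 without mutZn 3.

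The largest fold changes among the windows with at least 20 events in each D27aa library came from sites of 1 to 4 nt. These windows were below the filter level in mutZn and in WT 3 and WT 4, so their direction was largely fixed by entering the test. A single nucleotide, 28183795 on the minus strand of chromosome 17, held 98.7% of the D27aa events of its window. That window (chr17:28180001-28185000) had no event in mutZn 3 or mutZn 4 and 41 and 34 events in D27aa 1 and 2, at least 596-fold lower in mutZn when mutZn is set to 3 events over both libraries. On the plus strand of chromosome 10, in chr10:94570001-94575000, all events of D27aa 1 and 2 (21 and 33) lay on nucleotide 94573966 and mutZn had none, at least 427-fold lower in mutZn by the same floor. WT 3 and WT 4 had no event in either window, so the absence was not particular to mutZn. WT 2 had 11 events in the chromosome 17 window and 3 in the chromosome 10 window, and the WT library without UV had 3 and 2. A plus-strand window of chromosome 14 (chr14:48410001-48415000) had 1 and 12 events in mutZn 3 and 4, against 60 and 96 in D27aa 1 and 2. There WT 2 had 5 events, and WT 3 and WT 4 had none. A minus-strand window of chromosome 17 (chr17:56820001-56825000) had 0 and 3 events in mutZn and 39 and 22 in D27aa, a ratio of the pooled rates, D27aa over mutZn, of 484 (95% exact binomial interval 158 to 2411.5), and this window lost its call with the run as a block (adjusted p 0.11, limma-moderated test). In the last 2 of these windows mutZn 4, which shared a sequencing run with D27aa 2, had more events than the deeper mutZn 3. Over all 127 windows mutZn 4 had the higher CPM of the 2 mutZn libraries in 96 (75.6%), against 45.8% of all tested windows, and the part of the shared run in this was not tested.

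**Figure D2:**
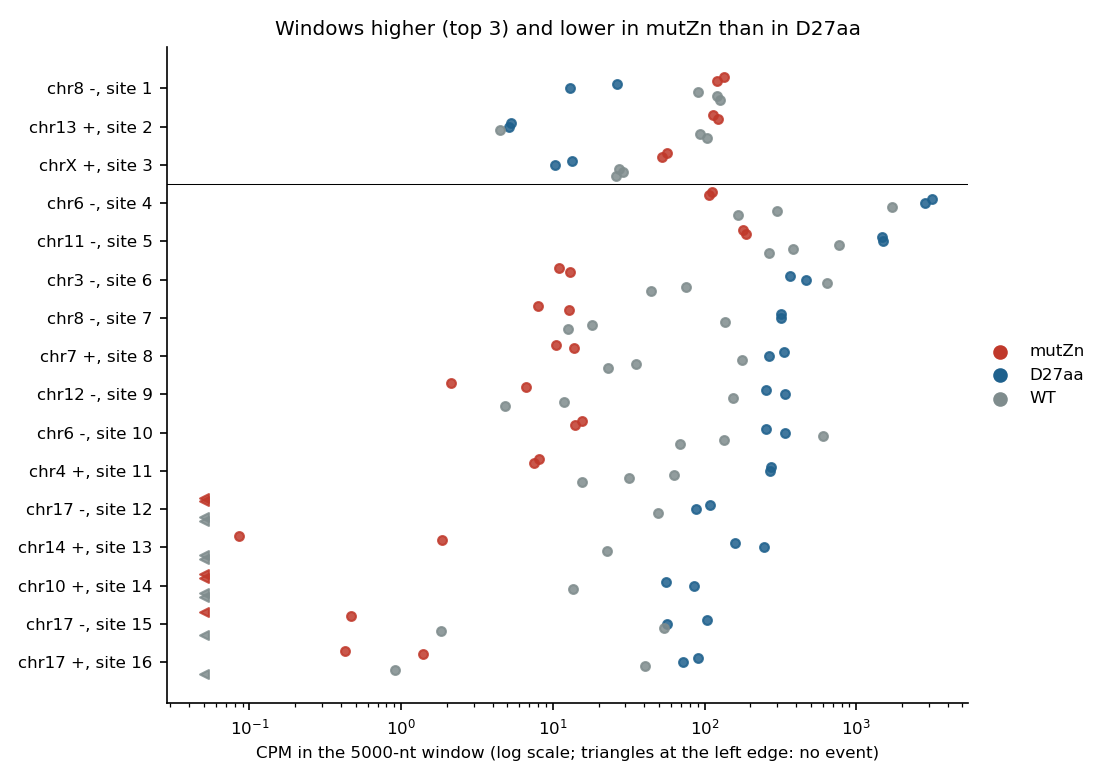
CPM in the windows chosen for description, on a log scale, with a point for each UV library of mutZn (red), D27aa (blue) and WT (grey). The 3 windows above the line were higher in mutZn, the 13 below it were lower, and in each of the 13 WT 2 lies above WT 3 and WT 4.

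Small extent was the common property of the windows lower in mutZn. In the median window 80% of the D27aa events fell within 8 nt (quartiles 3.5 and 17.5 nt), against 2560 nt over all tested windows. In 117 of the 127 windows (92.1%) this span was at most 300 nt, against 5.52% of all tested windows. The highest single nucleotide held 34.2% of the D27aa events in the median window, against 7.69% over all windows. These shapes come from D27aa events that also entered the test and are given as a description. In the 111 windows with at least 10 mutZn events, the strongest nucleotide of mutZn was within 5 nt of that of D27aa in 59 (53.2%), against 8.11% of all windows.

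A measure of extent that used neither mutant gave the same order. Windows were sorted by the span that held 80% of the WT 3 and WT 4 events. Of the 229 windows with a span up to 300 nt, 53 (23.1%) were called, 1 higher and 52 lower in mutZn, and the median log2 fold change was -1.58. Of these 229 windows 128 were below the filter level in mutZn. In the 97 compact windows at that level in both WT samples, 18 were called (18.6%), all lower in mutZn, and the median log2 fold change was -1.34. Of the 3092 windows with a span over 3000 nt, 8 (0.259%) were called and the median log2 fold change was 0.01. The compact windows together held 9422.6 and 9521.8 CPM in mutZn 3 and 4, against 29012 and 30993 CPM in D27aa 1 and 2. The same windows held 26142, 15775 and 12269 CPM in WT 2, WT 3 and WT 4, and without UV 12424 CPM in mutZn and 15065 CPM in D27aa. The wide windows held 125150 and 124240 CPM in mutZn and 116310 and 114080 CPM in D27aa. A further 53 of the windows lower in mutZn were among 86 windows with fewer than 30 events in WT 3 and WT 4 together, for which no span was computed. All 53 were below the filter level in mutZn and in WT 3 and WT 4, so their direction followed from how they entered the test.

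The level at these sites also differed within WT. Summed over the 127 windows, mutZn 3 and 4 had 1135.1 and 1257 CPM, D27aa 1 and 2 had 15058 and 16954 CPM, and WT 2, WT 3 and WT 4 had 9606.3, 3177.2 and 2113.2 CPM. The 7 UV libraries thus ran from high to low sum in nearly the reverse order of their totals, with D27aa above the shallower WT 2. WT 2 was above both WT 3 and WT 4 in 112 of the 127 windows (88.2%), against 42.2% of all tested windows. WT 2 carried the library identifier of D27aa 1 and WT 3 and WT 4 carried another, so run and total change together within WT. The libraries without UV, the shallowest of all, had 2941 CPM (196 events) in mutZn, 2148 CPM (75 events) in D27aa and 8786.8 CPM in WT. In the D27aa library without UV 86 of the 127 windows had no event, where 1 event is 28.6 CPM. Depth and mutant form cannot be told apart for mutZn and D27aa, since each mutZn library is deeper than each D27aa library.

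The 3 windows higher in mutZn lay on chromosomes 8, 13 and X. The plus-strand window chr13:23355001-23360000 had 113.0 and 122.5 CPM in mutZn and 5.3 and 5.1 CPM (2 events each) in D27aa (log2 fold change 4.29, SE 1.19, adjusted p 0.032, limma-moderated test). Its mutZn events were compact, with 80% inside 14 nt on 30 nucleotides in all. Counting each nucleotide once gave the window a log2 fold change of -0.63. The minus-strand window chr8:53280001-53285000 had 134.6 and 120.8 CPM in mutZn and 26.6 and 12.9 CPM in D27aa (log2 fold change 2.61, adjusted p 0.037, limma-moderated test), and 1.001 on the same scale with each nucleotide counted once (adjusted p 0.53). The plus-strand window chrX:150160001-150165000 had 56.3 and 52.6 CPM in mutZn and 13.3 and 10.3 CPM in D27aa (log2 fold change 2.10, adjusted p 0.046, limma-moderated test), with an adjusted p of 0.054 with the run as a block and 0.13 after thinning. None of the 3 kept its call with limma-voom, without D27aa 1 or without D27aa 2. On chromosome 13 WT 2 had 4.5 CPM, as low as D27aa, while WT 3 and WT 4 had 92.9 and 104.3 CPM. Without UV this window held 180.1 CPM in mutZn cells (12 events) and 85.9 CPM in D27aa cells (3 events). The chromosome 8 window without UV did not keep the order, with 135.05 CPM in mutZn (9 events) and 143.2 CPM in D27aa (5 events). The chromosome X window without UV held 225.1 CPM in mutZn (15 events), above its level with UV, and 28.6 CPM in D27aa (1 event).

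Srsf7 itself had a lower CPM in mutZn than in D27aa, and its events lay differently along the gene. The gene (chr17, minus strand, 7.6 kb) held 4140.5 and 3740.7 CPM in mutZn 3 and 4, against 10952 and 10412 CPM in D27aa 1 and 2. The mutZn mean was 0.369 of the D27aa mean, and both mutZn libraries were below both D27aa libraries. For the strongest Srsf7 window (chr17:80600001-80605000) the log2 fold change was -1.56 (SE 0.57), which did not pass the limma-moderated test (adjusted p 0.41) and passed it with all libraries kept separate (adjusted p 0.0012). The fit with libraries kept separate counts the joined pairs as independent samples. WT 2, WT 3 and WT 4 had 15732, 10789 and 8905.5 CPM over the gene. Without UV the gene held 6467.2 CPM in mutZn and 8105.2 CPM in D27aa, so the ratio of the forms was nearer to 1 without UV than with it, on 431 and 283 events. Whether an event came from the fusion gene or from the endogenous Srsf7 cannot be told.

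Along Srsf7, a stretch of 1100 nt beginning 2700 nt from the 5′ edge (chr17:80603701-80604800) held 56.9% and 55.2% of the gene's events in mutZn, against 78.7% and 78.6% in D27aa. In WT 2, WT 3 and WT 4 it held 74.1%, 66.4% and 63.1%. Without UV the order was the other way, with 68.4% in mutZn (295 events) and 64.7% in D27aa (183 events). A single 100-nt bin in this stretch (chr17:80604001-80604100) held 6.78% and 6.17% of the events in mutZn and 24.7% and 22.3% in D27aa. In CPM this bin had 280.8 and 230.7 in mutZn, against 2703.6 and 2317.1 in D27aa. Another bin 500 nt upstream in the transcript (chr17:80604501-80604600) had the other order, with 227.5 and 232.3 CPM in mutZn and 108.9 and 131.3 CPM in D27aa, and without UV 285.1 CPM in mutZn (19 events) and 486.9 CPM in D27aa (17 events). The remaining gene, from 3800 nt to the 3′ end, held 1467 and 1388.4 CPM in mutZn and 1973.3 and 1887.2 CPM in D27aa. The difference over the gene was thus mostly a difference in this one stretch, where mutZn had 2354.1 and 2063.4 CPM and D27aa 8615.4 and 8184.6 CPM. The stretch and bins were chosen after their values were seen and have no test of their own.

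**Figure D3:**
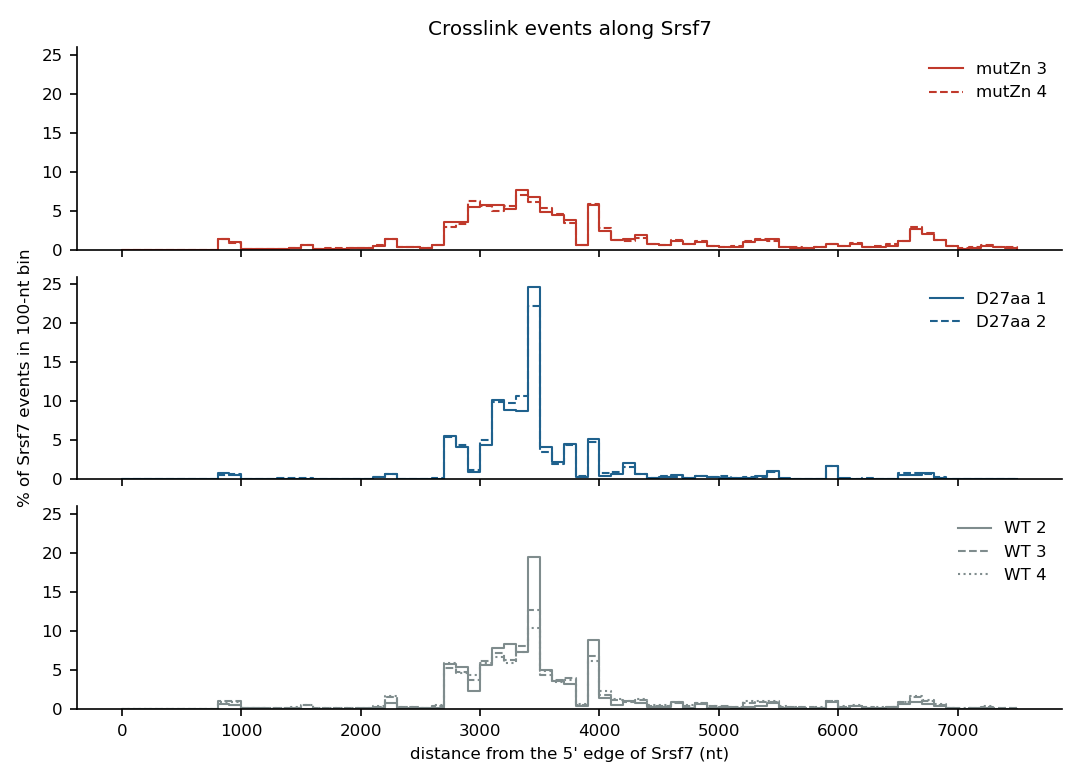
Share of a library's Srsf7 events in each 100-nt bin, against the distance from the 5′ edge of the gene, for mutZn (top), D27aa (middle) and WT (bottom), with a line for each library. The bin at 3400 nt reaches 24.7% and 22.3% in D27aa and stays at 6.78% and 6.17% in mutZn.

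The 4 short noncoding RNAs examined had a lower CPM in mutZn than in D27aa with UV. Rn7sk, the 7SK RNA that holds the elongation factor P-TEFb inactive, had 1043.9 and 1017.3 CPM in mutZn and 2108.7 and 2057.1 CPM in D27aa (log2 fold change -1.096, SE 0.57). Snord118, the U8 RNA of ribosomal RNA processing, had 362.1 and 352.5 CPM in mutZn and 995.9 and 1112.2 CPM in D27aa. The Y RNAs, partners of the Ro60 protein, showed the same order: Rny1 had 82.4 and 78.8 CPM in mutZn and 270.9 and 324.4 CPM in D27aa. Rny3 had 252.3 and 225.6 CPM in mutZn and 637.4 and 728.6 CPM in D27aa. In all 4 genes both mutZn libraries were below both D27aa libraries, as in 24.9% of all tested windows. None of the 4 windows passed the limma-moderated test (adjusted p 0.23 to 0.72), and all 4 passed it with libraries kept separate (adjusted p 0.0024 to 0.047), a fit that called 4.76% of all windows lower in mutZn. Rn7sk follows the naming rule, and Snord118, Rny1 and Rny3 were chosen after their values were seen. In each of the 4, WT 2 was above WT 3 and WT 4, with 2261.6 CPM on Rn7sk against 1303.7 and 916.6 CPM. Snord118 had the other order without UV, with 690.2 CPM in mutZn (46 events) and 343.7 CPM in D27aa (12 events). So did Rny3, with 375.1 CPM in mutZn (25 events) and 200.5 CPM in D27aa (7 events). Rn7sk kept its order without UV, with 1260.4 CPM in mutZn (84 events) and 1432 CPM in D27aa (50 events). Rny1 also kept it, on 5 events in mutZn and 8 in D27aa.

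Malat1, a nuclear long noncoding RNA of splicing speckles, held the most events of any locus described, with 10302 and 10169 CPM in mutZn against 12209 and 12258 CPM in D27aa. The ribosomal RNA precursor Rn45s had 6282.4 and 7219.1 CPM in mutZn and 7430.9 and 8591.4 CPM in D27aa. The plus strand of the mitochondrial chromosome had 3974.2 and 4293.5 CPM in mutZn and 3115.2 and 3619.9 CPM in D27aa. In the windows of these 3 loci with the highest levels, the adjusted p was 0.89 or higher (limma-moderated test). Neat1, the RNA of paraspeckles, had 32.4 and 32.5 CPM in mutZn and 18.6 and 38.6 CPM in D27aa, with overlapping groups. Xist and H19 had at most 0.5 CPM on their own strand in the 4 libraries.

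The 3 expressed noncoding RNAs of the imprinted Dlk1-Dio3 domain had a higher CPM in mutZn. Meg3 had 1389 and 1367.9 CPM in mutZn and 823.3 and 844.5 CPM in D27aa, and Rian had 858.1 and 862.1 CPM in mutZn and 438.2 and 422.2 CPM in D27aa. Mirg had 319.3 and 311.0 CPM in mutZn and 170.0 and 193.1 CPM in D27aa. In each of the 3 both mutZn libraries were above both D27aa libraries, as in 36.3% of all tested windows. WT 2 had 45.1 CPM on Meg3 while WT 3 and WT 4 had 411.5 and 412.7 CPM, so this locus differed within WT as well. All 3 genes kept the order of the mutants without UV. Meg3 then had 960.3 CPM in mutZn (64 events) and 572.8 CPM in D27aa (20 events). Rian had 840.3 CPM in mutZn (56 events) and 486.9 CPM in D27aa (17 events). Mirg had 240.1 CPM in mutZn (16 events) and 143.2 CPM in D27aa (5 events). The higher CPM in mutZn was thus not particular to the UV libraries. No window of the 3 genes passed the limma-moderated test, and 6 of 20 passed it with libraries kept separate, counted in either direction. These were 5 of 10 in Rian, 1 of 4 in Mirg and 0 of 6 in Meg3, and the windows of a gene adjoin each other. That fit called 7.65% of all windows in either direction and 2.89% higher in mutZn.

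With UV, all 3 genes of heat shock chaperones had a higher CPM in both mutZn libraries than in either D27aa library. This order was found in 36.3% of all tested windows. Hsp90ab1 had 727.5 and 687.2 CPM in mutZn and 358.5 and 368.2 CPM in D27aa, and Hsp90aa1 had 157.8 and 128.9 CPM in mutZn and 50.5 and 38.6 CPM in D27aa. Hspa8 had 115.2 and 125.8 CPM in mutZn and 82.3 and 79.8 CPM in D27aa. WT 2, WT 3 and WT 4 had 595.9, 1052.4 and 1000.6 CPM on Hsp90ab1, so WT 3 and WT 4 were above mutZn. On Hsp90aa1 these WT libraries had 90.29, 175.7 and 184.1 CPM, again with WT 3 and WT 4 above mutZn. On Hspa8 they had 54.2, 114.7 and 126.1 CPM. In the Hsp90aa1 window mutZn exceeded D27aa by 1.69 on the log2 scale (SE 0.55), with an adjusted p of 0.20, or 0.0047 with libraries kept separate (limma-moderated test). The translation factor gene Eef1a1 had 297.2 and 275.5 CPM in mutZn and 111.5 and 103.0 CPM in D27aa. Actb had 246.0 and 246.9 CPM in mutZn and 119.5 and 121.0 CPM in D27aa. The order was the other way for the elongation factor gene Eef2, with 440.8 and 431.9 CPM in mutZn and 494.0 and 543.2 CPM in D27aa. It was also the other way for the fatty acid synthase gene Fasn, with 293.3 and 299.0 CPM in mutZn and 528.5 and 499.5 CPM in D27aa. None of the windows of these genes passed the test with mutZn 3 and 4 joined. Hsp90ab1 without UV had 675.2 CPM in mutZn (45 events) and 687.4 CPM in D27aa (24 events). Hsp90aa1 had the other order without UV, with 90.03 CPM in mutZn and 171.8 CPM in D27aa (6 events each). So did Eef1a1, with 285.1 CPM in mutZn (19 events) and 429.6 CPM in D27aa (15 events). Actb had 150.05 CPM in mutZn (10 events) and 200.5 CPM in D27aa (7 events). Hspa8, Eef2 and Fasn kept their order without UV.

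Among the genes of SR proteins, Srsf3 stood opposite to Srsf7. It had 415.2 and 407.0 CPM in mutZn and 156.7 and 157.0 CPM in D27aa, and in its strongest window mutZn exceeded D27aa by 1.47 on the log2 scale (SE 0.58), with an adjusted p of 0.37, or 0.0047 with libraries kept separate (limma-moderated test). Without UV Srsf3 had nearly the same level in both forms, 345.1 CPM in mutZn (23 events) and 343.7 CPM in D27aa (12 events). On Srsf3 WT 2, WT 3 and WT 4 had 189.6, 190.3 and 205.6 CPM. The other 4 SR protein genes had mutZn means of 0.926 to 1.095 times the D27aa mean. Srsf1 had 372.4 and 373.9 CPM in mutZn and 369.2 and 363.0 CPM in D27aa, and Srsf2 had 378.4 and 372.7 CPM in mutZn and 369.2 and 316.7 CPM in D27aa. Srsf5 and Srsf6 had 122 to 223 CPM in the 4 libraries. Of the genes of hnRNP proteins, which coat nascent transcripts, Hnrnpa2b1 had 772.9 and 771.5 CPM in mutZn and 632.1 and 589.6 CPM in D27aa. Hnrnpk had 177.8 and 171.5 CPM in mutZn and 132.8 and 123.6 CPM in D27aa, and Hnrnpu overlapped between the forms. The snoRNA host gene Gas5 had 228.5 and 232.7 CPM in mutZn and 284.2 and 290.9 CPM in D27aa. Snhg1, the other one, had 183.3 and 199.9 CPM in mutZn and 127.5 and 162.2 CPM in D27aa.

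**Figure D4:**
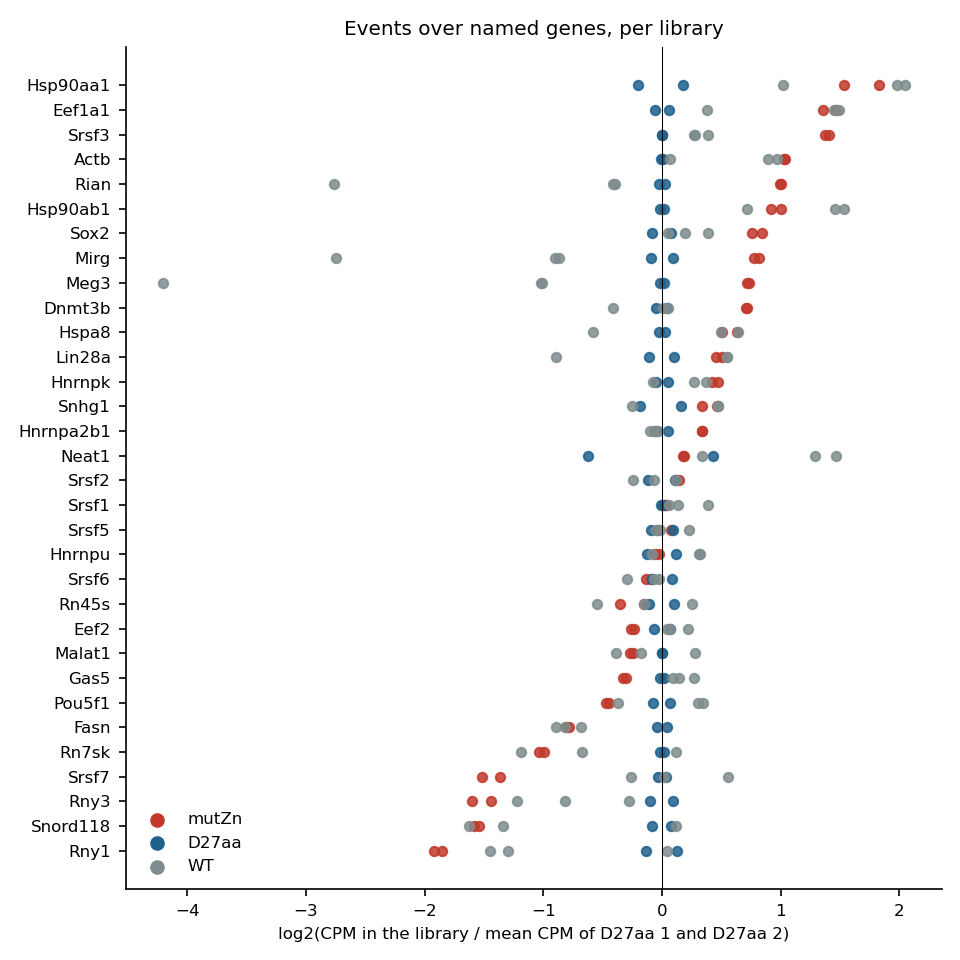
Events over named genes in each UV library, as log2 of the CPM over the mean CPM of D27aa 1 and D27aa 2, with genes ordered by the mutZn mean. Both mutZn libraries (red) lie right of D27aa (blue) from Hsp90aa1 down to Hnrnpa2b1, and left of it from Eef2 down to Rny1 at the bottom, with WT in grey.

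Crosslink events were less concentrated on single nucleotides in mutZn. All libraries were thinned to 376536 events, the smaller D27aa total. They then covered 368729 and 368579 nucleotides in mutZn 3 and 4, against 346163 and 345390 in D27aa 1 and 2. Nucleotides with at least 5 events held 0.364% and 0.460% of the events in mutZn and 4.29% and 4.58% in D27aa. The 100 strongest nucleotides held 0.190% and 0.219% in mutZn and 1.29% and 1.38% in D27aa, and the single strongest held 13 and 16 events in mutZn and 151 and 143 in D27aa. The number of pairs of events on the same nucleotide, whose expected share does not change with thinning, was 0.169 and 0.187 per 1000000 pairs in mutZn and 3.26 and 3.59 in D27aa. Both mutZn libraries were below both D27aa libraries in each of these shares. The exact permutation test of these single values, 2 libraries against 2, cannot go below 0.333.

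Within WT, library total and sequencing run moved with this measure too. At full depth the number of same-nucleotide pairs per 1000000 was 2.62, 0.688 and 0.319 in WT 2, WT 3 and WT 4, so the libraries of 1 form also lay far apart. WT 2 has the smallest total of these 3 and another library identifier than WT 3 and WT 4. The 2 libraries of each mutant carried different library identifiers and had similar values, 3.26 and 3.59 in D27aa and 0.171 and 0.190 in mutZn. Of these, mutZn 3 and mutZn 4 differ by about the sampling noise and count as 1 sample. Within the run of mutZn 4, D27aa 2, WT 3 and WT 4 the values were 0.190, 3.59, 0.688 and 0.319. Thinned to 34916 events, the library without UV had 0.907 in mutZn, against 0.246 and 0.230 in mutZn 3 and 4, and 2.25 in D27aa, against 3.42 and 3.45 in D27aa 1 and 2. Without UV the 2 forms thus kept their order with a smaller gap, and the WT library without UV had the highest value of the 10 libraries, 7.21. The part of the total and of the run in the concentration was not tested.

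**Figure D5:**
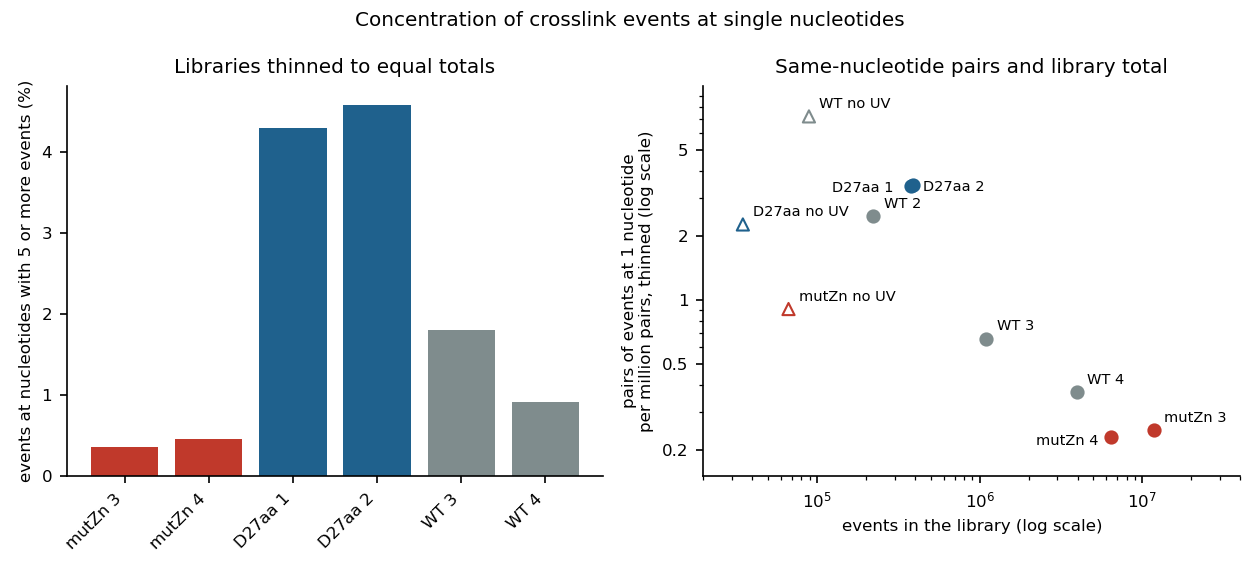
Left, share of events at nucleotides with 5 or more events after thinning to 376536 events, with a bar for each library of mutZn, D27aa and WT (WT 2 is shallower and left out). Right, same-nucleotide pairs per 1000000 pairs after thinning to 34916 events, against the library total, on log axes. Filled points are UV libraries and open triangles those without UV, and mutZn 3 and 4 lie lowest and D27aa 1 and 2 highest among the UV libraries.

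On the scale of windows the forms differed in 2 ways. The thinned mutZn libraries had events in 106695 and 107638 windows, against 122754 and 123467 in D27aa, so mutZn events covered fewer windows. At the same time the 10 strongest windows held 2.69% and 2.74% of the events in mutZn and 4.13% and 4.18% in D27aa, and the 100 strongest held 5.197% and 5.233% in mutZn and 6.98% and 7.16% in D27aa. When each nucleotide was counted once, the order turned: the 100 strongest windows then held 4.09% and 4.11% of the covered nucleotides in mutZn and 3.50% and 3.66% in D27aa. The order of the forms in this share thus depended on repeated events at the same nucleotides.

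Chromosome 17, which carries Srsf7 and Rn45s, received 5.61% and 5.62% of the events in mutZn and 6.42% and 6.36% in D27aa. Without these 2 loci the shares were 4.56% and 4.52% in mutZn and 4.58% and 4.46% in D27aa, and the forms overlapped. Chromosome 12 held 3.94% and 3.95% in mutZn and 3.72% and 3.67% in D27aa. Without Meg3, Rian and Mirg it still held 3.68% and 3.70% in mutZn and 3.58% and 3.53% in D27aa. The Y chromosome held 0.0813% and 0.0819% of the events in mutZn and 0.0390% and 0.0463% in D27aa, with 0.0652% to 0.0713% in the WT libraries, and the X chromosome held 3.89% and 3.95% in mutZn and 3.61% and 3.70% in D27aa.

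The mutZn and D27aa libraries shared fewer crosslinked nucleotides with each other than the 2 libraries of mutZn or the 2 of D27aa did. In thinned libraries mutZn 3 and mutZn 4 had 2.34% of their nucleotides in common, and D27aa 1 and D27aa 2 had 4.04%. A mutZn library had 1.58% to 1.76% of its nucleotides in common with a D27aa library, and a D27aa library 1.68% to 1.88% with a mutZn library. Nucleotides were shared more often than their neighbours: coincidence at the same nucleotide was 1.28 times that at 1 nt distance within mutZn and 1.78 times within D27aa. Between the forms it was 1.11 to 1.22 times. Sites of the 2 forms thus still met at single-nucleotide resolution, less sharply than sites within mutZn or within D27aa. Within 5 nt, 8.55% of the nucleotides of mutZn 3 had a partner in mutZn 4 and 6.30% had one in D27aa 1, while 10.5% of those of D27aa 1 had a partner in D27aa 2. With WT included, sharing did not follow the form alone. At full depth, the rate of same-nucleotide pairs between 2 libraries was divided by the rate within them. This ratio was 0.465 and 0.409 for WT 2 with WT 3 and WT 4, and 0.885 for WT 3 with WT 4. It was 0.770 and 0.765 for D27aa 1 and 2 with WT 2, and 0.827 and 0.849 for mutZn 3 and 4 with WT 4.

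The authors also deposited peak lists, called on summed replicates of each form, with 2246120 peak nucleotides for mutZn and 34759 for D27aa. The mutZn peaks contained 23.3% of the form's events and joined into 305302 clusters at a gap of up to 15 nt, and the D27aa peaks contained 11.1% and joined into 9154 clusters. The 16368 nucleotides in both lists were 0.729% of the mutZn list and 47.1% of the D27aa list. Of the D27aa peak nucleotides 75.1% had a mutZn peak within 30 nt on the same strand. Among peak nucleotides with a score of at least 10, 19.2% of 28582 in the mutZn list and 85.0% of 1132 in the D27aa list were also in the other list, at any score there. For 8659 D27aa peak nucleotides no mutZn peak lay within 30 nt. At these nucleotides mutZn 3 had an event at 1113 (12.9%) and mutZn 4 at 862 (9.96%), against 57.3% in D27aa 1 and 55.4% in D27aa 2. These nucleotides were chosen for the lack of a mutZn peak, so the shares describe the choice. The lists differ greatly in length, and no score was compared between them.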

How the data were processed

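The deposited files hold a signed whole-number score per nucleotide, the number of cDNAs that ended there, with the sign giving the strand. Per the file headers, scores refer to mm9 and Ensembl release 59. Per the same headers, the authors called peaks on summed replicates with 100 permutations, a neighbourhood of 15 nt and a false discovery rate of 0.05. CASAVA 1.4 is named in the submitters' processing notes, and neither an aligner nor a way of removing duplicates is given in the sources used here. Replicate numbers follow the titles, which differ from those in the headers. The sequencing run was read from the library identifier in the same headers, which is taken here to mark a run.

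Absolute scores were summed per strand in windows of 5000 nt. A window was tested where at least 2 libraries reached the CPM that 10 events have at the median total and all libraries together held at least 15 events. Because the values are scores, edgeR was not used, and a quasi-likelihood test for negative binomial values, computed in Python 3.11.15 (numpy 2.4.6, scipy 1.17.1, pandas 2.3.3), was moderated with limma 3.58.1 in R 4.3.3, with TMM scaling and Benjamini-Hochberg adjustment over all windows. Libraries of one form with a dispersion index under 1.1 were summed, which left 5 libraries: 1 of mutZn, 2 of D27aa and 2 of WT. In simulated data with 200 changed windows among 6744, the test recovered 6.67% of 2-fold, 78.0% of 4-fold and 100% of 8-fold changes, with 8 false calls of 125. These data were drawn from the fitted model itself, with directions at random and the same level in WT 2 as in WT 3 and WT 4. The rate of false calls in the real libraries, where WT 2 lies apart, is therefore not given by them. Alternatives covered scaling, filter, window size, depth, counting each position once, sequencing run, limma-voom and each library left out.

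Windows were named by rule: in each direction, the 8 called stretches with the highest level and the 6 called windows with the largest fold change among those with at least 20 events in each library of the higher form, together with the 10 windows of highest mean level. Members and gene lists were chosen with earlier results of these data known. Genes were placed by well known mm9 positions with matching strand, since no mm9 annotation was used here. Of 38 genes placed, 37 had a RefSeq entry on the same chromosome. Intervals and floors cover counting error only. Figures were drawn with matplotlib 3.10.9.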

Additional observations from a re-analysis of the deposited data

How the results depend on the processing

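Against 130 windows called between mutZn and D27aa (3 higher and 127 lower in mutZn), 516 were called with libraries kept separate (195 higher, 321 lower), 370 with no filter (64 higher, 306 lower) and 450 with limma-voom (61 higher, 389 lower). The libraries of mutZn and D27aa alone gave 637 (219 higher, 418 lower), thinning gave 64 (61 of them lower), and the shared sequencing run, an alternative chosen after seeing the data, gave 533 (194 higher, 339 lower). Scaling by the library total raised the windows higher in mutZn to 12 and moved the median log2 fold change to 0.14. The run as a block, a fit with libraries kept separate, gave 9 higher and 105 lower, against 195 and 321 without the block. Windows of 1000 nt gave 0 calls of 2253 in the limma-moderated test, with 282 at an unadjusted p under 0.05; limma-voom was not run on them. Leaving out 1 library gave 42 to 630 windows, 0 to 235 higher and 42 to 395 lower. Each of the 130 windows had the same sign in every alternative on 5000-nt windows, except 1 when each position was counted once: chr13:23355001-23360000 then had a log2 fold change of -0.63. The Rn45s window chr17:39985001-39990000, not called, had 0.42 with all events and -2.39 there. The share of events at nucleotides with at least 5 events, mutZn minus D27aa, was -4.02 percentage points in thinned libraries, 1.102 at full depth, where the deeper mutZn libraries reach 5 events more often, and -3.75 without the mitochondrial chromosome and the strongest window. The share in the strongest 100 windows differed by -1.86 percentage points, by 0.52 with each position counted once and by -2.39 in windows of 1000 nt. The share of nucleotides in common between the forms was 0.539 of that within forms, and 0.707 within 5 nt. Peak overlap as a share of the D27aa list was 66.6%, 71.9% and 75.1% within 5, 15 and 30 nt and 85.0% at a score of at least 10, and as a share of the mutZn list 2.49%, 3.77%, 5.15% and 19.2%. The causes of the other changes were not tested. No paired analysis was possible because mutZn (replicates 3 and 4) and D27aa (replicates 1 and 2) share no replicate number. Depth limits the D27aa side: 1 event in the D27aa library without UV is 28.6 CPM.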
